A study of Mus musculus with 16 samples.

Results

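The nitric oxide, natriuretic peptide and cyclic GMP (cGMP) pathway was followed through 8 genes in isolated mouse glomeruli, the filtering units of the kidney. The genes were chosen by name as the synthase, cyclases, receptors, phosphodiesterase and kinase of the pathway: Nos3, Gucy1a3, Gucy1b3, Npr1, Npr2, Npr3, Pde5a and Prkg1. All 8 were found among the 25791 symbols of the deposited table. The samples were 7 glomerular libraries from mice given lisinopril and losartan and 9 from untreated mice. Lisinopril inhibits angiotensin-converting enzyme and losartan blocks the angiotensin II type 1 receptor, so together they block the renin-angiotensin-aldosterone system (RAAS). The doses were 20 mg/day of lisinopril and 30 mg/day of losartan in the drinking water, from an age of 10 to 12 weeks up to 26 weeks. Every mouse in both groups carried the same genotype, eNOS-/-//db/db. By its label this genotype lacks endothelial nitric oxide synthase, the product of Nos3, and carries both copies of the db allele, a leptin receptor mutation that gives obesity and type 2 diabetes. Mice with working Nos3 or without diabetes were not analysed here. The age of the untreated mice at collection is not given in the sources used here.

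In this pathway, endothelial nitric oxide synthase makes nitric oxide, a gas that crosses into neighbouring contractile cells and binds soluble guanylate cyclase, an enzyme built from an alpha and a beta subunit. A parallel arm starts from natriuretic peptides, whose receptors Npr1 and Npr2 carry a guanylate cyclase in their own cytoplasmic part, while Npr3 mainly removes the peptides from the circulation. Both arms make cGMP, which activates cGMP-dependent protein kinase and relaxes smooth muscle and mesangial cells, the contractile cells that hold the glomerular capillaries together. Phosphodiesterase 5 ends the signal by hydrolysing cGMP.

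Expression is given as FPKM, fragments per kilobase of transcript scaled to the mapped fragments of the library, which allows levels to be compared between genes of different length. A log2 fold change here is the mean log2(FPKM + 1) of RAAS-blocked libraries minus that of untreated ones, given ± SE, from limma over 13286 tested genes with Benjamini-Hochberg adjustment. The labels name no animal for a library, so the spread behind each p-value is that between libraries, which may be partly technical.

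The libraries were checked first. The labels name the tissue as kidney and describe magnetic isolation of glomeruli. The podocyte marker Nphs1, a slit diaphragm gene, was at 181 to 470 FPKM in RAAS-blocked and 189 to 433 FPKM in untreated libraries. Podxl, another podocyte marker, was listed at 0 in every library. Tubule RNA was also present in varying amounts, with the proximal tubule transporter gene Slc34a1 at 2.59 to 182 FPKM in RAAS-blocked and 6.70 to 241 FPKM in untreated libraries. Ren1, the renin gene, which rises when angiotensin signalling is blocked, was at 33.5 to 1584 FPKM in RAAS-blocked and 6.92 to 263 FPKM in untreated libraries. RAAS-blocked replicate 4 held the 33.5 FPKM, within the untreated range, so values that rest on this library are also given without it. The log2 fold change of Ren1 was 3.85 ± 0.76 with all libraries (limma adjusted p = 0.218). It was 4.56 ± 0.55 (limma adjusted p = 0.0038) when RAAS-blocked replicate 4 was left out. The library numbers in the labels do not name a processing run, so whether one was shared within a group is unknown. FPKM values summed to 1172070 in RAAS-blocked replicate 5 and 1104590 in untreated replicate 7, against 408454 to 492575 in the other libraries. The table holds no counts. From the steps between very low values, the libraries lay at 0.986 to 1.66 times the depth of untreated replicate 0. In these bulk libraries fewer cells of a type and less RNA per cell cannot be told apart.

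Not one of the 8 genes differed between RAAS-blocked and untreated glomeruli beyond the spread between libraries. In limma 0 of 8 passed an adjusted p of 0.05, where 0.0151% of all tested genes did. Ren1, with a log2 fold change of 3.85, did not pass with all libraries either (limma adjusted p = 0.218). Not passing in this fit therefore does not show that a gene is unchanged. At an unadjusted p under 0.05 there were likewise 0 of 8, against 6.13% of all tested genes, and an exact Wilcoxon test and an exact permutation test, both two-sided, also had 0 of 8 at that level. The count at an unadjusted p moved with the settings: in 8 of 31 alternatives Gucy1a3 had a p under 0.05, with the lowest, 0.0107, without RAAS-blocked replicate 6, and Gucy1b3 had one (0.0365) with the endothelial marker level as a covariate. None of these passed after adjustment. In those 8 settings 694 to 1905 of the 13286 tested genes also had an unadjusted p under 0.05, against 814 with the main settings. The 1905 were with the endothelial covariate, and 926 were without RAAS-blocked replicate 6. The ranges of the groups overlapped for every one of the 8, and 0.0602% of all tested genes had groups that did not overlap. Of the 8 genes 6 had a higher and 2 a lower mean log2 level after RAAS blockade, where 5944 of all 13286 tested genes were higher and 7342 lower. Their median log2 fold change was 0.046 for the 8, against -0.017 over all tested genes. Without RAAS-blocked replicate 4 limma again passed 0 of 8, with log2 fold changes of 0.10 for Nos3, 0.61 for Gucy1a3, 0.26 for Gucy1b3, 0.039 for Npr1, -0.045 for Npr2, 0.033 for Pde5a and 0.073 for Prkg1. The value of Npr3 without it is given with that gene.

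**Figure D1:**
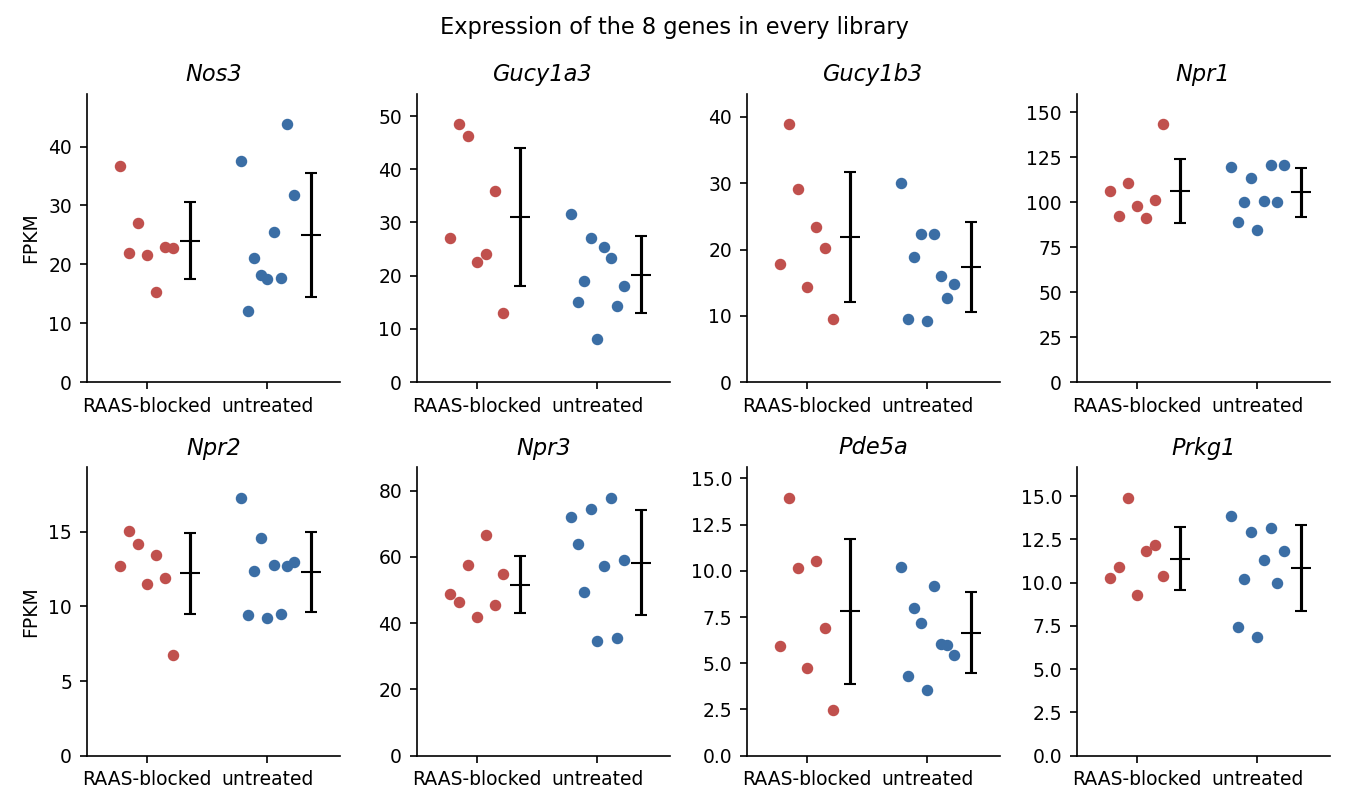
Expression of the 8 genes in FPKM (vertical axes, each from 0), with 1 point per library for the 7 RAAS-blocked libraries (left, red) and the 9 untreated libraries (right, blue); black marks give the mean ± SD. The points of both groups overlap in every panel, and Gucy1a3 has the widest gap between the means, 31.0 and 20.2 FPKM.

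Nos3, the gene targeted in these mice, was read in every library. It was at 15.4 FPKM (lowest), 22.8 FPKM (median) and 36.7 FPKM (highest) in RAAS-blocked libraries, against 12.1, 21.1 and 43.8 FPKM in untreated libraries. The untreated range enclosed the RAAS-blocked one. The means were 24.0 ± 6.54 FPKM (SD, n = 7) in RAAS-blocked and 25.0 ± 10.6 FPKM (SD, n = 9) in untreated libraries, and the log2 fold change was 0.0082 ± 0.23 (limma adjusted p = 0.996), with a 95% interval of -0.49 to 0.50. Transcripts of the locus were thus counted in all 16 libraries of a genotype labelled as lacking the enzyme. FPKM summed over a gene cannot tell whether its transcript encodes a working protein, and which part of the gene was altered is not given in the sources used here.

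Gucy1a3 and Gucy1b3 encode the alpha-1 and beta-1 subunits of soluble guanylate cyclase, the nitric oxide receptor, and are called Gucy1a1 and Gucy1b1 in the current RefSeq annotation. Gucy1a3 was at 13.0 FPKM (lowest), 27.1 FPKM (median) and 48.4 FPKM (highest) in RAAS-blocked libraries, against 8.08, 19.0 and 31.5 FPKM in untreated libraries. In 6 of 7 RAAS-blocked libraries it lay above the untreated median, and RAAS-blocked replicates 1, 2 and 5 lay above every untreated library. The log2 fold change was 0.57 ± 0.28, with a 95% interval of -0.024 to 1.16 (limma adjusted p = 0.817; exact two-sided permutation p = 0.0778 over 11440 arrangements of the group labels, unadjusted). Gucy1b3 was at 9.57 FPKM (lowest), 20.2 FPKM (median) and 38.9 FPKM (highest) in RAAS-blocked libraries, against 9.23, 16.01 and 30.0 FPKM in untreated libraries. Both ranges of Gucy1b3 began at nearly the same level, and 1 RAAS-blocked library, replicate 1, exceeded the highest untreated one. Its log2 fold change was 0.30 ± 0.27, with a 95% interval of -0.28 to 0.88 (limma adjusted p = 0.914). Without RAAS-blocked replicate 6 the Gucy1b3 log2 fold change was 0.46 and that of Gucy1a3 0.75 (limma adjusted p = 0.749 and 0.620). Without RAAS-blocked replicate 1 the Gucy1b3 log2 fold change was 0.15, and without untreated replicate 4 it was 0.20 for Gucy1b3 and 0.43 for Gucy1a3.

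Cell type marker levels also differed between libraries, and the Gucy1a3 and Gucy1b3 differences are given here with these levels as covariates. Mesangial and pericyte markers (6 of 6 tested) had higher means in RAAS-blocked mice for 5 genes and lower for 1, with sums of 192 to 541 FPKM in RAAS-blocked and 166 to 454 FPKM in untreated libraries and none listed at 0. Endothelial markers (12 of 12 tested) had higher means for 2 and lower for 10, with sums of 2068 to 3755 FPKM in RAAS-blocked and 2420 to 4984 FPKM in untreated libraries, again with none at 0. With the mesangial and pericyte level as a covariate, Gucy1a3 had a log2 fold change of 0.28 ± 0.11 (limma adjusted p = 0.558) and Gucy1b3 one of 0.0012 ± 0.088 (limma adjusted p = 0.9999). With the endothelial level as a covariate the values were 0.75 ± 0.27 for Gucy1a3 (limma adjusted p = 0.235) and 0.53 ± 0.23 for Gucy1b3 (limma adjusted p = 0.316). With the proximal tubule level as a covariate both were close to the values without one, 0.57 ± 0.29 for Gucy1a3 (limma adjusted p = 0.692) and 0.29 ± 0.28 for Gucy1b3 (limma adjusted p = 0.850). Left out together, untreated replicates 1 and 4, the libraries with the highest proximal tubule levels, gave 0.36 for Gucy1a3 and 0.088 for Gucy1b3.

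Among the natriuretic peptide receptors, Npr1 had the highest level and the narrowest range of the 8 genes. Npr1, the cyclase receptor for atrial and B-type natriuretic peptide, was at 91.3 FPKM (lowest), 101 FPKM (median) and 143 FPKM (highest) in RAAS-blocked libraries, against 84.6, 101 and 120 FPKM in untreated libraries. Its values spanned a 1.69-fold range over all libraries, with a coefficient of variation of 14.2%. The groups lay on top of each other apart from RAAS-blocked replicate 6, which was highest. The log2 fold change was 0.0054 ± 0.10, with a 95% interval of -0.21 to 0.22 (limma adjusted p = 0.994).

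Npr3, the clearance receptor, was next in level. It was at 41.7 FPKM (lowest), 48.8 FPKM (median) and 66.6 FPKM (highest) in RAAS-blocked libraries, against 34.6, 59.1 and 77.8 FPKM in untreated libraries. Only 1 of 7 RAAS-blocked libraries, replicate 4, exceeded the untreated median, yet the untreated range enclosed all of them. The log2 fold change was -0.13 ± 0.17, with a 95% interval of -0.50 to 0.23 (limma adjusted p = 0.934), and -0.20 without RAAS-blocked replicate 4. Npr2, the cyclase receptor for C-type natriuretic peptide, was at 6.74 FPKM (lowest), 12.7 FPKM (median) and 15.0 FPKM (highest) in RAAS-blocked libraries, against 9.22, 12.7 and 17.3 FPKM in untreated libraries. The lowest value belonged to RAAS-blocked replicate 6 and stood apart from the rest of its group. The log2 fold change of Npr2 was -0.019 ± 0.15 with all libraries (95% interval -0.34 to 0.30, limma adjusted p = 0.990) and 0.10 without RAAS-blocked replicate 6.

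Pde5a and Prkg1, which end and carry out the cGMP signal, were the lowest of the 8. Pde5a, the cGMP-specific phosphodiesterase blocked by sildenafil, was at 2.49 FPKM (lowest), 6.92 FPKM (median) and 13.9 FPKM (highest) in RAAS-blocked libraries, against 3.57, 6.02 and 10.2 FPKM in untreated libraries. The RAAS-blocked libraries held both the lowest and the highest value of all 16. The log2 fold change was 0.12 ± 0.27, with a 95% interval of -0.45 to 0.69 (limma adjusted p = 0.957). Without RAAS-blocked replicate 6 it was 0.32, and without RAAS-blocked replicate 1 it was -0.030, so its size and sign rested on single libraries. Prkg1, cGMP-dependent protein kinase I, was at 9.26 FPKM (lowest), 10.9 FPKM (median) and 14.9 FPKM (highest) in RAAS-blocked libraries, against 6.88, 11.3 and 13.9 FPKM in untreated libraries. Its groups shared nearly their whole range, and the log2 fold change was 0.083 ± 0.13, with a 95% interval of -0.20 to 0.37 (limma adjusted p = 0.947).

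**Figure D2:**
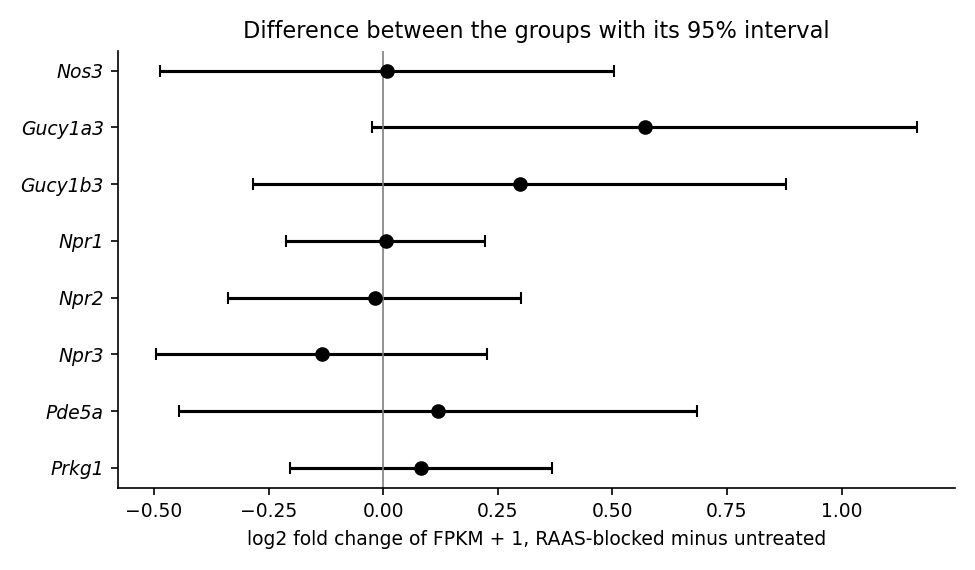
Difference between the groups for each gene, as the log2 fold change of FPKM + 1, RAAS-blocked minus untreated (horizontal axis), with its 95% interval from limma. Every interval includes 0, the narrowest is that of Npr1 (-0.21 to 0.22) and the widest that of Gucy1a3 (-0.024 to 1.16).

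In order of the median FPKM over all libraries, the genes ran Npr1 (101 FPKM), Npr3 (56.0), Gucy1a3 (23.6), Nos3 (22.3), Gucy1b3 (18.4), Npr2 (12.7), Prkg1 (11.1) and Pde5a (6.47). Npr1 exceeded Npr3 in 16 of 16 libraries, and Npr3 exceeded Gucy1a3 in 15 of 16. Gucy1a3 exceeded Nos3 in 9 of 16, so this pair was not separated beyond the spread between libraries. Nos3 exceeded Gucy1b3 in 4 of 7 RAAS-blocked and 8 of 9 untreated libraries. Gucy1b3 exceeded Npr2, and Prkg1 exceeded Pde5a, in 15 of 16 libraries each, while Npr2 exceeded Prkg1 in 12 of 16.

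Ratios within a library do not depend on its scaling and are given as a description. Gucy1a3 over Gucy1b3 was 1.44 ± 0.250 (SD, n = 7) in RAAS-blocked and 1.19 ± 0.219 (SD, n = 9) in untreated libraries. It lay between 1.02 and 1.77 in RAAS-blocked and between 0.875 and 1.59 in untreated libraries, and 6 of 7 RAAS-blocked libraries lay above the untreated median of 1.14. The exception, RAAS-blocked replicate 4, had the lowest ratio of its group, and without this library the RAAS-blocked mean was 1.51. Npr3 over Npr1, clearance receptor against cyclase receptor, was 0.496 ± 0.113 in RAAS-blocked and 0.549 ± 0.121 in untreated libraries. In 6 of 7 RAAS-blocked libraries this ratio did not reach the untreated median of 0.567, and the one above it was replicate 4, at 0.730. Without it the RAAS-blocked mean was 0.457. Npr2 over Npr1 averaged 0.120 ± 0.0365 in RAAS-blocked and 0.117 ± 0.0189 in untreated libraries. Pde5a over Prkg1 averaged 0.678 ± 0.329 in RAAS-blocked and 0.611 ± 0.134 in untreated libraries, and all these ratios overlapped between the groups.

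**Figure D3:**
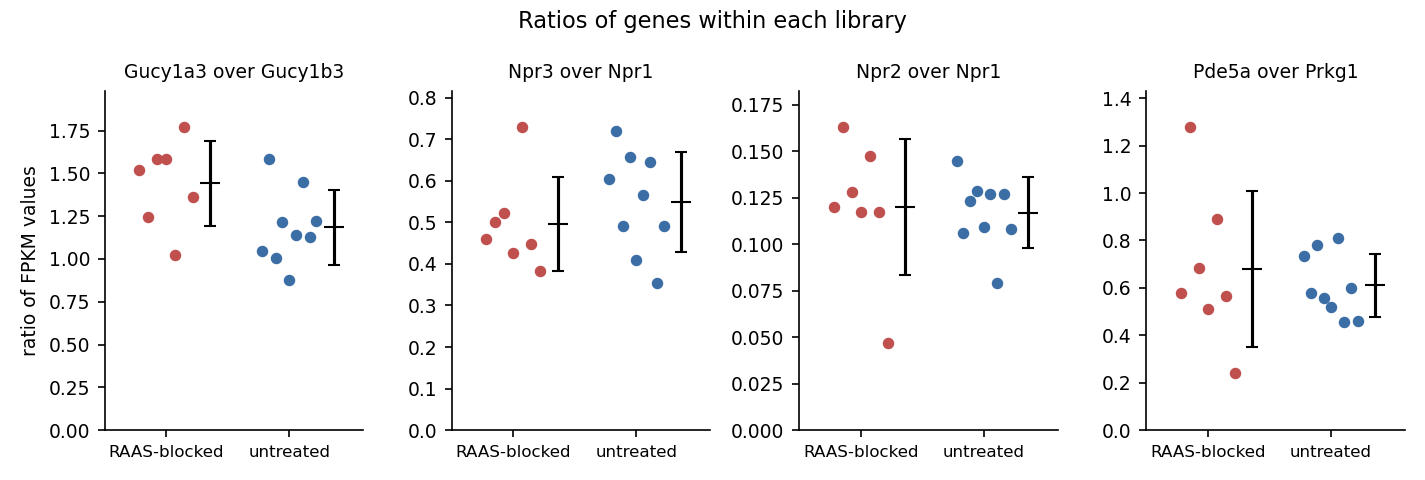
Ratios of FPKM values within each library (vertical axes, each from 0), with the 7 RAAS-blocked libraries on the left (red) and the 9 untreated on the right (blue) and the mean ± SD in black. Gucy1a3 over Gucy1b3 has means of 1.44 and 1.19, and in the panel of Npr2 over Npr1 a single RAAS-blocked library lies at 0.0471.

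Several of the genes varied together between libraries. The soluble guanylate cyclase subunits, Pde5a and Npr2 were high in the same libraries and low in the same libraries. Over 28 pairs of the 8 genes, 10 had a permutation p under 0.05 after adjustment over the pairs, all 10 with a positive r. These relations are across 16 libraries that also share their tissue makeup. The strongest was Gucy1b3 with Pde5a, with a Pearson r of 0.94 (permutation p = 1e-05, the smallest that 100000 resamples give, adjusted p = 0.00014, two-sided) and a Spearman rho of 0.95 (permutation p = 1e-05). Its r was 0.98 within the RAAS-blocked and 0.95 within the untreated group, and 0.92 without the 2 libraries farthest from the median of Gucy1b3.

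Gucy1a3 with Gucy1b3, the subunits of 1 enzyme, had an r of 0.90 (permutation p = 1e-05, adjusted p = 0.00014) and a rho of 0.89 (permutation p = 2e-05). The r was 0.92 within the RAAS-blocked and 0.90 within the untreated group, and 0.86 without the farthest 2 libraries. Npr2 joined them, with an r of 0.85 against Pde5a (permutation p = 4e-05, adjusted p = 0.00028; rho 0.82, permutation p = 0.00022) and of 0.83 against Gucy1b3 (permutation p = 4e-05, adjusted p = 0.00028; rho 0.85, permutation p = 8e-05). These had r of 0.71 and 0.81 without the farthest 2 libraries. Within groups, Npr2 with Pde5a had r of 0.92 in RAAS-blocked and 0.80 in untreated libraries, and Npr2 with Gucy1b3 r of 0.89 in RAAS-blocked and 0.84 in untreated libraries. Prkg1 passed with Gucy1a3 (r 0.73), Gucy1b3 (0.72) and Pde5a (0.59), at permutation adjusted p = 0.0058, 0.0058 and 0.0472. In that order, these r were 0.57, 0.53 and 0.52 in RAAS-blocked and 0.89, 0.85 and 0.77 in untreated libraries. Neither Nos3 nor Npr1 had a partner among the 8 that passed by Pearson r, and Npr3 passed with Prkg1 alone. The r of Npr3 with Prkg1 was 0.59 (permutation adjusted p = 0.0474), and 0.40 without the farthest 2 libraries. The highest r of Npr1 was with Prkg1, 0.57 (permutation p = 0.0207, adjusted p = 0.0528), and 0.69 without the farthest 2 libraries. The rho of that pair, 0.63, did pass (permutation p = 0.0115, adjusted p = 0.0322). The highest r of Nos3 was with Npr2, 0.41 (permutation p = 0.112, adjusted p = 0.224; rho 0.39, permutation p = 0.133), and 0.36 without the farthest 2 libraries. It was 0.013 within the RAAS-blocked and 0.68 within the untreated group.

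**Figure D4:**
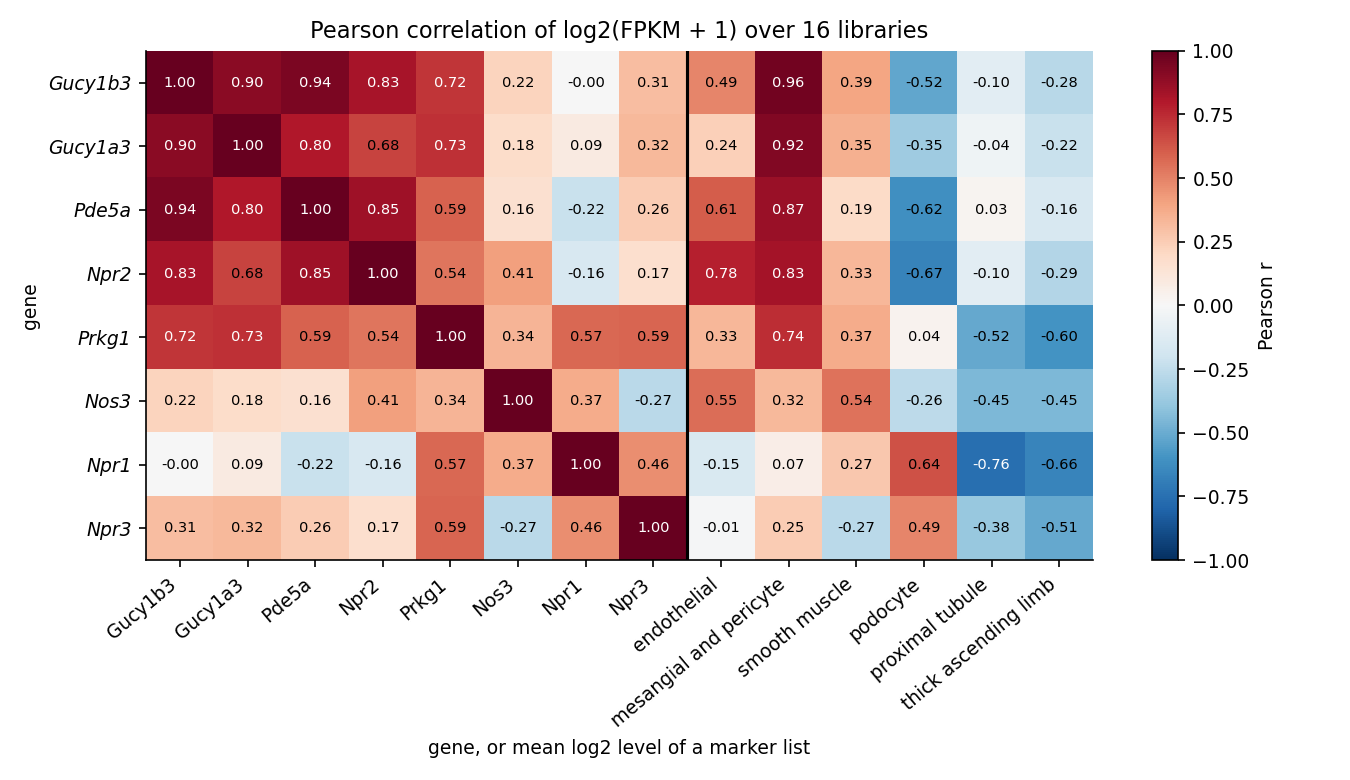
Pearson r of log2(FPKM + 1) over 16 libraries between the 8 genes (left block) and between each gene and the mean level of 6 marker lists (right block), coloured from blue (-1) through white (0) to red (1). A red block joins Gucy1b3, Gucy1a3, Pde5a and Npr2 with each other and with the mesangial and pericyte column, where Gucy1b3 reaches 0.96. Prkg1 has r of 0.72 with Gucy1b3, 0.73 with Gucy1a3, 0.59 with Pde5a, 0.54 with Npr2 and 0.74 with that column.

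The same genes followed the mesangial and pericyte markers. Over 48 relations of the 8 genes with 6 marker levels, 11 passed by Pearson r after adjustment. Gucy1b3 had an r of 0.96 with the mesangial and pericyte level (permutation p = 1e-05, adjusted p = 0.00024; rho 0.93, permutation p = 1e-05), 0.94 within the RAAS-blocked and 0.98 within the untreated group, and 0.94 without the farthest 2 libraries. Gucy1a3 had 0.92 (permutation p = 1e-05, adjusted p = 0.00024; rho 0.95, permutation p = 1e-05), with 0.98 in RAAS-blocked and 0.89 in untreated libraries and 0.91 without the farthest 2. For Pde5a the r was 0.87 (permutation p = 3e-05, adjusted p = 0.00048; rho 0.82, permutation p = 0.00024), with 0.89 in each group and 0.80 without the farthest 2. For Npr2 it was 0.83 (permutation p = 4e-05, adjusted p = 0.00048; rho 0.81, permutation p = 0.00027), with 0.87 in each group and 0.77 without the farthest 2. Prkg1 had the lowest of the 5 that passed, 0.74 (permutation p = 0.00102, adjusted p = 0.00699; rho 0.69, permutation p = 0.00423), with 0.53 in RAAS-blocked and 0.89 in untreated libraries and 0.55 without the farthest 2. None of the 8 genes passed with the smooth muscle level. Npr2 and Pde5a were lower where podocyte markers were higher, with r of -0.67 for Npr2 (permutation p = 0.00525, adjusted p = 0.0310; rho -0.41, permutation p = 0.115) and -0.62 for Pde5a (permutation p = 0.0107, adjusted p = 0.0466; rho -0.50, permutation p = 0.0501). Without the farthest 2 libraries these were -0.61 and -0.29, so the relation of Pde5a rested on those libraries. Within groups the r was -0.87 in RAAS-blocked and -0.47 in untreated libraries for Npr2, and -0.84 in RAAS-blocked and -0.31 in untreated libraries for Pde5a. By rho neither of these podocyte relations passed (permutation adjusted p = 0.267 for Npr2 and 0.165 for Pde5a).

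Nos3, an endothelial gene by its known place of expression, had an r of 0.55 with the endothelial level, which did not pass (permutation p = 0.0265, adjusted p = 0.0871; rho 0.51, permutation p = 0.0474). The r was -0.028 within the RAAS-blocked and 0.80 within the untreated group, and 0.37 without the farthest 2 libraries. The difference between those within-group values was not tested. Npr2 did pass with the endothelial level, with an r of 0.78 (permutation p = 0.00037, adjusted p = 0.00355; rho 0.71, permutation p = 0.00275), 0.86 in RAAS-blocked and 0.82 in untreated libraries and 0.70 without the farthest 2.

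Npr1 was lower where proximal tubule and thick ascending limb markers were higher. Its r was -0.76 with the proximal tubule level (permutation p = 0.00074, adjusted p = 0.00592; rho -0.69, permutation p = 0.00416), -0.57 within the RAAS-blocked and -0.90 within the untreated group, and -0.63 without the farthest 2 libraries. With the thick ascending limb level the r was -0.66 (permutation p = 0.00581, adjusted p = 0.0310). It was -0.53 within the RAAS-blocked and -0.77 within the untreated group, and -0.49 without the farthest 2 libraries. The rho with this level, -0.57, did not pass (permutation p = 0.0223, adjusted p = 0.119). With the podocyte level the r was 0.64 (permutation p = 0.00832, adjusted p = 0.0399). It was 0.91 within the RAAS-blocked and 0.37 within the untreated group, and 0.48 without the farthest 2. Without RAAS-blocked replicate 6 it was 0.64 within the RAAS-blocked group. The rho with the podocyte level, 0.49, did not pass either (permutation p = 0.0585, adjusted p = 0.176). Podocyte markers (8 of 9 tested, Podxl at 0) summed to 1500 to 4823 FPKM in RAAS-blocked and 1910 to 4564 FPKM in untreated libraries. Proximal tubule markers (8 of 8 tested, none at 0) summed to 8.37 to 347 FPKM in RAAS-blocked and 14.3 to 565 FPKM in untreated libraries. Npr3 had an r of 0.49 with the podocyte level, which did not pass (permutation p = 0.0531, adjusted p = 0.129; rho 0.52, permutation p = 0.0401). It was 0.30 within the RAAS-blocked and 0.61 within the untreated group, and 0.44 without the farthest 2 libraries.

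**Figure D5:**
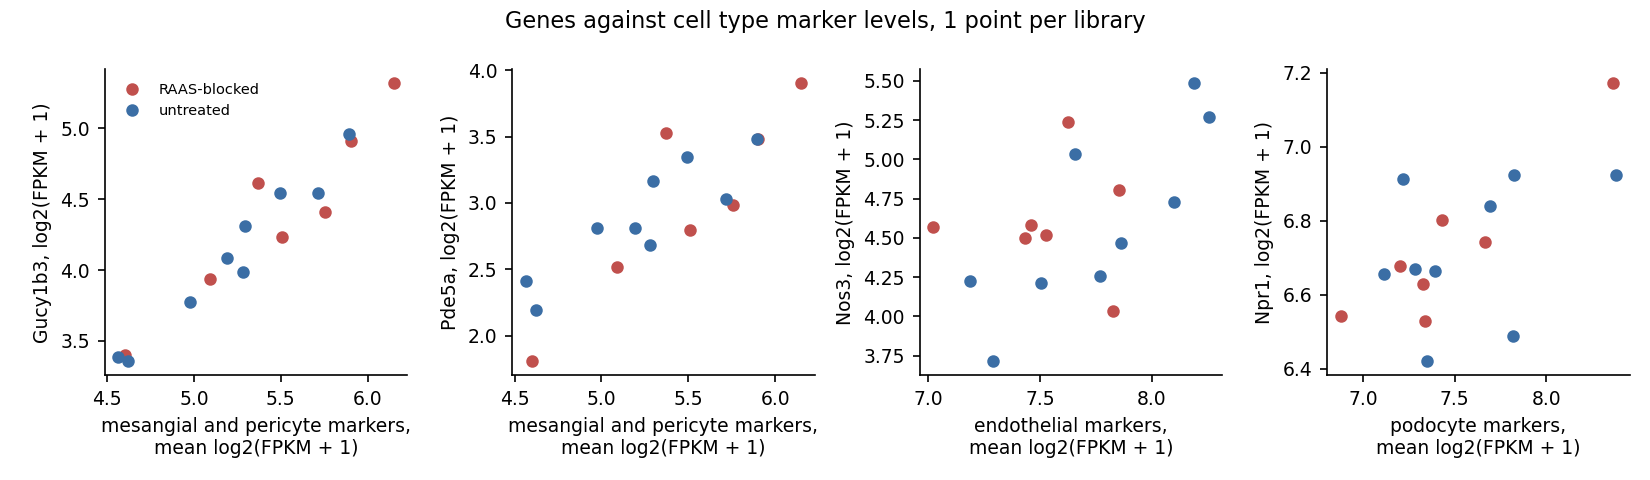
Level of 4 genes as log2(FPKM + 1) (vertical axes) against the mean log2(FPKM + 1) of a marker list (horizontal axes), with 1 point per library, RAAS-blocked in red and untreated in blue. Gucy1b3 and Pde5a climb along the mesangial and pericyte level (r of 0.96 and 0.87), whereas Nos3 scatters against the endothelial level (r of 0.55) and Npr1 against the podocyte level (r of 0.64).

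The r of Npr1 with 4 of the other genes, chosen after their values were seen, was negative among RAAS-blocked and positive among untreated libraries. With Npr2 it was -0.86 among RAAS-blocked and 0.58 among untreated libraries. With Gucy1b3 it was -0.69 among RAAS-blocked and 0.69 among untreated libraries, with Pde5a -0.77 among RAAS-blocked and 0.56 among untreated libraries, and with Gucy1a3 -0.60 among RAAS-blocked and 0.77 among untreated libraries. With Prkg1 it was -0.023 among RAAS-blocked and 0.95 among untreated libraries, while with Nos3 and Npr3 it was positive in both groups. Over all libraries none of these pairs passed by Pearson r. RAAS-blocked replicate 6 weighed heavily in these values. It had the highest Npr1 of all libraries (143 FPKM), the lowest Npr2 (6.74 FPKM), the highest podocyte level of its group (8.36) and the lowest mesangial and pericyte level of its group (4.60). This library also had the lowest endothelial (7.02) and proximal tubule (0.856) levels of all libraries. Without it the r within the RAAS-blocked group was -0.16 for Npr2, -0.21 for Gucy1b3, -0.36 for Pde5a, 0.22 for Gucy1a3 and 0.42 for Prkg1. The difference between the groups in these relations was not tested.

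Because Gucy1a3, Gucy1b3 and Pde5a moved together, their promoters are shown. RefSeq places Gucy1a1 and Gucy1b1 next to each other among the protein-coding genes of chromosome 3, on the same strand, and Pde5a elsewhere on that chromosome. Each sequence holds 250 bases before and 50 after a listed start, from RefSeq on GRCm38.p6, found for 7 of the 8 genes. Gucy1a3 and Gucy1b3 were matched through a synonym and the others by symbol. The build of the deposited values is not given in the sources used here. The Gucy1a3 sequence, the first of its 2 listed starts, is chr3:82145601-82145900 on the minus strand, that of Gucy1b3 is chr3:82074662-82074961 on the minus strand, and that of Pde5a is chr3:122728908-122729207 on the plus strand. Capitals mark the GC box (GGGCGG) and the CCAAT box (CCAAT), each searched on both strands.
Gucy1a3 promoter: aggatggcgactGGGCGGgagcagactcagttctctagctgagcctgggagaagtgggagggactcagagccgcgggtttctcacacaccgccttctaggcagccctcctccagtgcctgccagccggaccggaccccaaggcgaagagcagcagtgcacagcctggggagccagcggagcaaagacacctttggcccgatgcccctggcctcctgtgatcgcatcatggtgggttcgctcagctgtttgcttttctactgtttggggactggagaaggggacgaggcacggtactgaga
Gucy1b3 promoter: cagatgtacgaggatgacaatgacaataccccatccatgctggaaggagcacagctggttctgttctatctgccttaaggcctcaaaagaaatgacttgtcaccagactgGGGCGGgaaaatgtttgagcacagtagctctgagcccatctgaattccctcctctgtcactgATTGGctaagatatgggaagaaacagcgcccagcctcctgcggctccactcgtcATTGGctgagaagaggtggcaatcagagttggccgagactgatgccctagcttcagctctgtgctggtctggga
Pde5a promoter: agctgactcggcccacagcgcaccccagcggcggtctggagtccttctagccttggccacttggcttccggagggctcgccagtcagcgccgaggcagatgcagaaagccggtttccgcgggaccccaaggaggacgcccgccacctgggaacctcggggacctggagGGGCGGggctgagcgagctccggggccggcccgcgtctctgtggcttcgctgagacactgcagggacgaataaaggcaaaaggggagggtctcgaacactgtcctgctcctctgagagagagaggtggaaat
All 3 sequences held 1 GC box, a motif found in 35.7% of the 32851 RefSeq promoters of this length. Outside these 3 genes, the Npr1 window held 2 GC boxes and Prkg1 held 1 at each of its 2 listed starts. The Npr2 and Npr3 windows held 0. The second listed start of Gucy1a1, not printed, held none of the motifs searched. The Gucy1b3 promoter alone of the 3 held CCAAT boxes, 2 of them, against 37.4% of all promoters with at least 1. Npr1, Npr3 and the first listed start of Prkg1 also held 1 CCAAT box each, and Npr2 held 0. E-boxes (CANNTG, which reads the same on both strands) numbered 1 in Gucy1a3, 3 in Gucy1b3 and 3 in Pde5a, and 72.3% of all promoters held at least 1. The CArG box, the motif of serum response factor, was in none of the 3 windows and in 1.63% of all promoters. These matches describe the letters of the windows and were not tied to the expression values.

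Genes whose pattern was most like that of each member were taken from 11615 named tested genes, by Pearson r over 16 libraries after centring on the group means. For Gucy1b3 these were Naalad2 (r = 0.98), Mrvi1 (0.97) and Itga8 (0.97), and for Pde5a Rcan2, Naalad2 and Itga8 (0.96 each). Itga8 is also on the mesangial and pericyte list and Mrvi1, a substrate of Prkg1, on the list of cGMP effectors. Pde5a had an r of 0.95 with Gucy1b3 on this scale, which placed Gucy1b3 at rank 5 among all candidates. For Gucy1a3 the closest genes were Hopx (0.96), Ptn (0.95) and Unc5b (0.94), and for Npr2 Fam38b (0.96), Mamld1 (0.95) and Kcnq5 (0.94). Gucy1b3 was the member most like both, at rank 17 for Gucy1a3 (r = 0.91) and rank 84 for Npr2 (r = 0.87).

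The remaining members had other companions. Nos3 was closest to Ddah2 (0.93), Adam15 (0.92) and Msx1 (0.91), and Ddah2, which degrades an inhibitor of nitric oxide synthases, is on the list of nitric oxide synthesis and its control. The member most like Nos3 was Npr2, with an r of 0.41 at rank 2249. For Npr1, Lman2 (0.92) and App (0.91) were among the closest 3, and its nearest member, Prkg1, stood at rank 1013 (r = 0.58). Npr3 was closest to Nptn (0.87), Odz3 (0.86) and the phosphodiesterase gene Pde3a (0.86). Prkg1 was closest to Rbms3 (0.92), Mxra8 (0.88) and C1qtnf2 (0.87). The genes in these lists were picked for their likeness, so the r values are a description.

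The wider pathway also held no gene past the threshold, with all libraries or without RAAS-blocked replicate 4. Of 28 listed genes of nitric oxide synthesis and its control 26 were tested, 7 with higher and 19 with lower means after RAAS blockade, and 0 passed in limma. At an unadjusted p under 0.05 there were 2, where 6.13% of all tested genes were. Without RAAS-blocked replicate 4 there was 1, where 962 of the 13286 tested genes were. The median log2 fold change of these 26 was -0.093, against -0.017 over all tested genes, and -0.031 without RAAS-blocked replicate 4. Over all tested genes 5944 had higher and 7342 lower means. Gchfr, the feedback inhibitor of the enzyme that starts synthesis of the synthase cofactor tetrahydrobiopterin, was at 25.6 ± 6.78 FPKM in RAAS-blocked and 37.7 ± 8.53 FPKM in untreated libraries (log2 -0.56 ± 0.18, limma adjusted p = 0.653). Nosip, a nitric oxide synthase interacting protein gene, was at 23.5 ± 2.17 FPKM in RAAS-blocked and 25.7 ± 1.18 FPKM in untreated libraries (log2 -0.13 ± 0.056, and -0.096 without RAAS-blocked replicate 4). Pts, which acts in the same cofactor synthesis, was at 31.5 ± 3.43 FPKM in RAAS-blocked and 35.3 ± 3.64 FPKM in untreated libraries. Of the other synthases, both chosen for naming after their values were seen, Nos2 was at 2.98 to 9.20 FPKM in RAAS-blocked and 4.54 to 10.4 FPKM in untreated libraries. Nos1 was below the level needed for testing, at 0.138 to 0.863 FPKM in RAAS-blocked and 0.296 to 1.43 FPKM in untreated libraries.

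Of 17 other cyclases, peptides and peptidases only 6 were tested, 2 with higher and 4 with lower means. Of the 6, 0 passed the threshold, where 0.0151% of all tested genes did. At an unadjusted p under 0.05 there were likewise 0, where 6.13% of all tested genes were. The median log2 fold change of the 6 was -0.084. Gucy1a2, the alpha-2 subunit of soluble guanylate cyclase, was at 5.403 ± 2.87 FPKM in RAAS-blocked and 4.05 ± 2.31 FPKM in untreated libraries (log2 0.34 ± 0.32). Guca2a (guanylin) was at 5.42 ± 2.93 FPKM in RAAS-blocked and 7.24 ± 4.58 FPKM in untreated libraries, and Ide, an insulin-degrading protease gene, at 11.8 ± 1.54 FPKM in RAAS-blocked and 11.2 ± 1.28 FPKM in untreated libraries. The natriuretic peptide genes, named after their values were seen, lay below the level needed for testing. Nppa did not exceed 0.180 FPKM in RAAS-blocked or 0.467 FPKM in untreated libraries, Nppb 0.0829 or 0.196 FPKM, and Nppc 1.05 or 0.490 FPKM. Each of the 3 receptors was at 6.74 FPKM or more in every library.

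Of 17 other cGMP-degrading phosphodiesterases and exporters 10 were tested, 5 with higher and 5 with lower means. Of the 10, 0 passed the threshold, where 0.0151% of all tested genes did. At an unadjusted p under 0.05 there were also 0, where 6.13% of all tested genes were. The median log2 fold change of the 10 was 0.014, and 0.081 without RAAS-blocked replicate 4. Without that library 1 of the 10, Abcc4, was at an unadjusted p under 0.05, where 962 of the 13286 tested genes were. Abcc4, a cyclic nucleotide exporter, was at 13.5 ± 2.31 FPKM in RAAS-blocked and 16.5 ± 3.39 FPKM in untreated libraries (log2 -0.26 ± 0.13, and -0.33 without RAAS-blocked replicate 4). Pde3a, whose hydrolysis of cyclic AMP is inhibited by cGMP, was at 14.1 ± 2.12 FPKM in RAAS-blocked and 11.5 ± 3.06 FPKM in untreated libraries (log2 0.30 ± 0.15). Pde2a, a cGMP-stimulated phosphodiesterase gene, was at 76.4 ± 34.0 FPKM in RAAS-blocked and 91.0 ± 30.7 FPKM in untreated libraries, above the 7.82 ± 3.93 FPKM in RAAS-blocked and 6.65 ± 2.19 FPKM in untreated libraries of Pde5a. The log2 fold change of Pde2a was -0.29 with all libraries and -0.43 without RAAS-blocked replicate 4.

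Of 21 cGMP effectors and kinase substrates found in the deposited values, 14 were tested, 9 with higher and 5 with lower means and 0 past the threshold. At an unadjusted p under 0.05 there were 2, where 6.13% of all tested genes were, and the median log2 fold change was 0.11. Without RAAS-blocked replicate 4 there were 3, where 962 of the 13286 tested genes were, and the median was 0.072. Kcnmb1, the beta subunit of the large-conductance potassium channel of smooth muscle, was at 2.10 ± 0.431 FPKM in RAAS-blocked and 1.23 ± 0.673 FPKM in untreated libraries (log2 0.52 ± 0.16, limma adjusted p = 0.639). Rgs2, a regulator of G-protein signalling that the kinase activates, was at 46.0 ± 7.28 FPKM in RAAS-blocked and 35.3 ± 9.99 FPKM in untreated libraries (log2 0.40 ± 0.15, limma adjusted p = 0.745). Zyx (zyxin), a focal adhesion gene, was at 75.2 ± 19.9 FPKM in RAAS-blocked and 56.9 ± 18.8 FPKM in untreated libraries (log2 0.42 ± 0.22, limma adjusted p = 0.820). Without RAAS-blocked replicate 4 the log2 fold change of Zyx was 0.55 (limma adjusted p = 0.596). Smooth muscle markers (6 of 6 tested, none at 0) had higher means for 5 genes and lower for 1. They summed to 268 to 462 FPKM in RAAS-blocked and 94.9 to 458 FPKM in untreated libraries, and their part in the values of these effectors was not tested.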

How the data were processed

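Glomerular RNA was sequenced in 7 RAAS-blocked and 9 untreated libraries with the Illumina TruSeq mRNA kit, per the labels' protocols. The authors deposited FPKM values in 1 table, with 1 column per library named like the sample. The tools listed in the submitters' processing notes, without their roles, are Cuffdiff 2.2.1, Cufflinks, TopHat2 2.0.8, CASAVA 1.8.2 and FastQC. The sources used here do not give the build, the annotation or the use of strand. Absolute depth is unknown, and reads of overlapping genes cannot be told apart.

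The 13286 genes that reached 1 FPKM in 7 or more libraries were tested with limma 3.58.1 in R 4.3.3, as log2 of FPKM plus a pseudocount of 1. Group was the only term, with trended, robust variance moderation and Benjamini-Hochberg adjustment at 0.05. All 8 genes passed the filter. The pseudocount shrinks the fold changes of genes with low values. Correlations used 100000 resamples with Python 3.11.15. The functions were tested on simulated data. Marker levels are means of log2(FPKM + 1) over tested markers.

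The 8 genes, the marker lists and the pathway lists were chosen with earlier results of these data known. Named are the 8 genes, the 3 genes of each pathway list with the lowest p, the 3 genes most like each member, and markers that describe the libraries. Some items that this rule names are not reported here. Alternatives covered pseudocount, filter, scaling, weights, variance model, a replicate block, rank and permutation tests, marker levels as covariates and leaving out libraries. Correlations under other settings were added after seeing the data.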

Additional observations from a re-analysis of the deposited data

Results flagged for a closer look

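In all, 3 values stood apart from the rest of their group by the gap to the nearest library relative to the whole range. All came from RAAS-blocked replicate 6. Npr1 was at 143 FPKM there, the highest of its group, Npr2 was at 6.74 FPKM, the lowest, and the ratio of Npr2 over Npr1 was 0.0471, the lowest. The ratio is made of the other 2 values and is not separate from them. The rule was applied to 24 groups of values, and chance flags about 1 in 20 groups. The podocyte level of this library was 8.36 and its mesangial and pericyte level 4.60. Its endothelial level, 7.02, and its proximal tubule level, 0.856, were the lowest of all libraries. Their part in the flagged values was not tested.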

How the results depend on the processing

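None of the 8 genes passed under any of the 31 alternative limma and Wilcoxon settings run, which include 16 fits without 1 library. The lowest limma adjusted p of a member was 0.235, for Gucy1a3 with the endothelial level as a covariate. Over all alternatives the log2 fold change ran from 0.28 to 0.75 for Gucy1a3, from 0.0012 to 0.53 for Gucy1b3 and from -0.22 to -0.076 for Npr3, with the sign kept. The other 5 genes, all with main values within 0.12 of 0, changed sign in some settings.

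Array weights gave -0.024 for Nos3, -0.020 for Npr1 and 0.020 for Npr2. The mesangial and pericyte covariate gave -0.079 for Nos3, -0.0015 for Npr1, -0.14 for Pde5a and -0.026 for Prkg1. The proximal tubule covariate gave -0.012 for Nos3 and -0.0085 for Npr1, and the endothelial covariate -0.015 for Npr1 and 0.15 for Npr2. Without both untreated replicates 1 and 4 the values were -0.17 for Nos3, -0.071 for Npr1, -0.046 for Pde5a and -0.062 for Prkg1. The Wilcoxon shift was -0.033 for Npr1 and 0.036 for Npr2. Npr2 was at 0.0064 with upper-quartile scaling, 0.0052 as TPM without Rn18s and small RNAs, and 0.0047 with the replicate block. Leaving out 1 library gave -0.10 to 0.12 for Nos3, -0.069 to 0.039 for Npr1, -0.071 to 0.10 for Npr2, -0.030 to 0.32 for Pde5a and 0.013 to 0.13 for Prkg1, with the 0.013 without untreated replicate 4. Nos3 was highest, at 0.20, with the replicate block and with the endothelial covariate. The cause of these changes was not tested.

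Over all genes limma called 1 higher and 1 lower. The calls were 1 gene in all, with 0 lower, under upper-quartile scaling, quantile normalization, TPM, neither trend nor robust moderation, and the proximal tubule covariate. They were 5 higher and 6 lower (11 in all) with array weights, 6 and 4 (10 in all) with the endothelial covariate, 1 and 2 with the mesangial and pericyte covariate, 2 higher without the filter, and 0 by the Wilcoxon test, which had 756 at an unadjusted p under 0.05. Leaving out 1 library gave 1 to 6 calls, 1 to 3 higher and 0 to 3 lower. With the replicate number as a block 1 gene was called, higher, and 0 lower. Same-numbered libraries had correlations of their deviations from -0.28 to 0.43, over 0.1 in 4 of 7 pairs, and 1 of 7 libraries correlated best with its own number, so the numbers were not taken to pair the mice.

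The 10 passing pairs of genes became 7 to 12 when 1 library was left out, and 7 pairs passed in every one of 18 settings added after seeing the data, among them Gucy1a3 with Gucy1b3 and Gucy1b3 with Pde5a. The 11 passing relations with marker levels became 8 to 17, the 17 without untreated replicate 7, and 7 passed in every setting. The podocyte level passed with Npr1 in 9, with Npr2 in 14 and with Pde5a in 6 of 18 settings. The thick ascending limb level passed with Npr1 in 14 of 18. The table has no counts, so what depth limits cannot be stated gene by gene.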
